A study of Mus musculus with 2 samples.

Results

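Neural progenitor and neuronal marker genes were examined in CT26 cells, a mouse colon cancer cell line, with and without knockdown of Setdb1. The 10 genes were Sox2, Pax6, Nes, Vim, Msi2 and Sox4, which mark neural progenitors, and Tubb3, Nefl, Nefm and Gap43, which mark neurons. They are 10 of the 54680 loci of the deposited table and 10 of the 10671 genes that reached 1 FPKM in at least 1 library. They were chosen by their FPKM of 1 or more in either library, so their levels and differences are a description and were not tested. In both libraries 9 of the 10 reached 1 FPKM, and Pax6 did so in the control library only.

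RNA sequencing of total RNA gave the gene expression values. In the shSetdb1 cells a short hairpin RNA against Setdb1 had been delivered by lentivirus, and the shCtrl cells, given as wild type in the labels, carried the empty knockdown vector. Both were CT26 cells grown in RPMI medium with serum and collected after 6 days, when the labels call the knockdown cells differentiated. Each group had 1 library, so no difference below has a replicate check, and each describes 2 libraries and not the conditions. The labels name no second hairpin and do not say whether cells were cloned or selected.

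SOX2 and PAX6 are transcription factors that maintain neural progenitor cells, and NESTIN (Nes) is the intermediate filament protein by which such cells are commonly recognised. When a progenitor becomes a neuron it normally loses nestin and builds a cytoskeleton of neurofilaments (Nefl, Nefm) and neuronal tubulins (Tubb3), while GAP43 gathers in the growing axon. Several of these genes are not restricted to the nervous system: vimentin (Vim) is the common filament of mesenchymal cells, and SOX4 and SOX2 are also found in epithelia and tumours. SETDB1 is a methyltransferase that places a repressive mark on histone H3.

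Reads per gene were recovered from the FPKM values, which count fragments per kilobase of gene model, scaled to a common depth. The totals were 18421604 reads in the shCtrl library and 19045830 in the shSetdb1 library. Setdb1 itself was at 10.4 FPKM (1340 reads) in shCtrl and 2.47 FPKM (317 reads) in shSetdb1, a read ratio of 0.229 (4.73% of its exon bases also lie in exons of other genes). Read ratios are knockdown over control, each relative to its library's total, with 95% exact binomial (Clopper-Pearson) intervals. These cover counting error only, taking each read as independent. PCR copies of a molecule are not independent, so the intervals may be too narrow even for counting error. Log2 ratios are of (FPKM + 1), which understates the difference of low genes, and a gene was counted as rising or falling at a 2-fold difference on that scale.

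Promoter sequences are shown for Sox2 and Nes, the members with the highest ratios among those with a RefSeq window, and for Pax6, the member with the lowest. Each is the 250 bases before a RefSeq start site (GRCm38.p6), written on the strand of the gene, with GC boxes (GGGCGG on either strand) and CCAAT (either strand) in capitals.
Sox2 (chr3:34649745-34649994, plus strand): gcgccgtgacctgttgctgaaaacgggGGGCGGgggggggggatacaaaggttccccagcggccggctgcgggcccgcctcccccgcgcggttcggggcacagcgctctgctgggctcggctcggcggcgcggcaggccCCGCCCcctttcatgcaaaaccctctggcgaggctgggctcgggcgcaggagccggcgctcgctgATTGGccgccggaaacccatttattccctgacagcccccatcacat
Nes (chr3:87970843-87971092, plus strand): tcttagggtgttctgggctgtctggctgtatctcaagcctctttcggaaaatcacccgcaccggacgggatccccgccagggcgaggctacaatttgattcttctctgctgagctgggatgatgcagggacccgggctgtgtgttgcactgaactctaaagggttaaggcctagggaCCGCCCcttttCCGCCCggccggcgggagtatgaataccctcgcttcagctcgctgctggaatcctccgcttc
Pax6 (chr2:105668646-105668895, plus strand): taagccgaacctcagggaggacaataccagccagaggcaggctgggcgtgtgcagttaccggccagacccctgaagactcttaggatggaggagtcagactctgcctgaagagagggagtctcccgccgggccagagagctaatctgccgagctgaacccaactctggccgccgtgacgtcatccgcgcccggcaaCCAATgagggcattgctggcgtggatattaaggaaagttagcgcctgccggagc

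The Sox2 window held 2 GC boxes and 1 CCAAT, the Nes window 2 GC boxes and no CCAAT, and the Pax6 window shown no GC box and 1 CCAAT. The TATA box letters TATAAA (either strand), which is in 12.4% of all windows, was in none of these 3. No match overlapped another in these windows. Of all 32851 RefSeq windows of the same length, 32.7% held a GC box and 33.8% a CCAAT. The Sox2 window had a GC content of 72% and 27 CpG dinucleotides, against medians of 52.4% and 6 over all windows. The Nes window had 58.8% and 15, and the Pax6 window shown 60.8% and 15. Pax6 has 2 RefSeq start sites, and the window shown is the one next to the start of the deposited gene model. The other, inside the gene (chr2:105682213-105682462), held no GC box and no CCAAT and had a GC content of 47.6% and 15 CpG. The bases after its start site were found in the annotated transcripts, and those after the start site of the window shown and of Sox2 were not. The Sox2 window ends 410 bases before the start of the deposited gene model. Windows were also found for Vim, Tubb3, Sox4 and Msi2, so 7 of the 10 genes were matched, and Nefl, Nefm and Gap43 were not.

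Of the 10 genes, 8 were higher in the knockdown library and 2 lower, where 49.6% of all 10671 genes were higher. Sox2, Nes and Nefl were the 3 that rose 2-fold or more, and none fell 2-fold. Among all genes, 6.81% rose 2-fold and 4.85% fell 2-fold. The members were picked with these values known, so nothing is read from 3 of 10 beside that share. At a 1.5-fold threshold 6 members rose and none fell, beside 16.9% and 14.3% of all genes. At 4-fold 1 rose, Nefl, and none fell, beside 1.09% and 0.525%. The median log2 ratio of the 10 genes was 0.65, beside -0.00039 over all 10671 genes. Their median level was 3.48 FPKM in shCtrl and 8.59 FPKM in shSetdb1, beside 7.38 and 7.56 FPKM over the same 10671 genes.

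**Figure D1:**
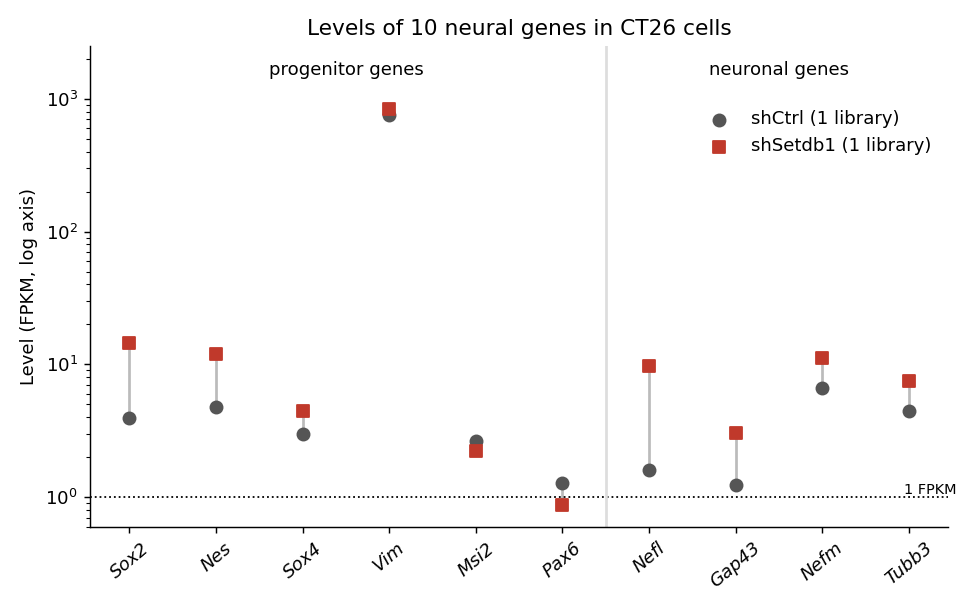
Level of each of the 10 genes in FPKM on a log axis, with 1 point for the shCtrl library (grey circle) and 1 for the shSetdb1 library (red square) and no error bar, since each group has 1 library. Vim lies at 752 and 835 FPKM, and every other gene lies at or under the 14.5 FPKM of Sox2 in shSetdb1.

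The progenitor transcription factors did not differ alike. Sox2 (ENSMUSG00000074637, a single-exon gene on the plus strand of chromosome 3, 34650405 to 34652461, GRCm38) was at 3.97 FPKM (153 reads) in shCtrl and 14.5 FPKM (557 reads) in shSetdb1. Its log2 ratio was 1.64 and its read ratio 3.52 (2.94 to 4.24). Pax6 (ENSMUSG00000027168, chromosome 2, 105668900 to 105697364, plus strand) was at 1.29 FPKM (282 reads) in shCtrl and 0.877 FPKM (192 reads) in shSetdb1. Its log2 ratio was -0.29 and its read ratio 0.659 (0.545 to 0.794), so the paired-box factor was the lower in the library in which Sox2 was the higher. Sox4 (ENSMUSG00000076431, chromosome 13, 28948919 to 28953713, minus strand), an SRY-box factor of progenitors and of early neurons, was at 2.995 FPKM (269 reads) in shCtrl and 4.44 FPKM (399 reads) in shSetdb1. Its log2 ratio was 0.45 and its read ratio 1.43 (1.23 to 1.68).

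Among the filament genes of progenitors, Nes rose and Vim did not. Nes (ENSMUSG00000004891, chromosome 3, 87971078 to 87980451, plus strand) was at 4.73 FPKM (569 reads) in shCtrl and 12.0 FPKM (1444 reads) in shSetdb1. The log2 ratio was 1.18, and reads stood at a ratio of 2.45 (2.23 to 2.71). Vim (ENSMUSG00000026728, chromosome 2, 13573927 to 13582826, plus strand) was at 752 FPKM in shCtrl and 835 FPKM in shSetdb1, a log2 ratio of 0.15. With 66772 and 74193 reads, its read ratio of 1.07 had an interval of 1.06 to 1.09. Vim was gene number 58 of 10671 by level in shCtrl and number 49 in shSetdb1, and its level was 159 times that of Nes in shCtrl and 69.5 times in shSetdb1. Msi2 (ENSMUSG00000069769, chromosome 11, 88339382 to 88718513, minus strand), a Musashi RNA-binding protein of stem cells, was at 2.64 FPKM (515 reads) and 2.24 FPKM (437 reads), and its read ratio was 0.821 (0.721 to 0.934).

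All 4 neuronal genes were higher in the knockdown library, and Nefl alone of them reached 2-fold. Nefl (ENSMUSG00000022055, chromosome 14, 68083863 to 68089095, plus strand), the light neurofilament chain, was at 1.60 FPKM (101 reads) in shCtrl and 9.68 FPKM (613 reads) in shSetdb1. Its log2 ratio of 2.04 was at percentile 99.0 of all 10671 genes, and its read ratio was 5.87 (4.75 to 7.32). Nefm (ENSMUSG00000022054, chromosome 14, 68082590 to 68124846, minus strand), the medium chain, was at 6.67 FPKM (722 reads) and 11.1 FPKM (1203 reads). The log2 ratio was 0.66, with a read ratio of 1.61 (1.47 to 1.77). By the deposited gene lengths, the level of Nefm was 4.18 times that of Nefl in shCtrl and 1.15 times in shSetdb1. The light chain was thus the one that differed more between the libraries. Neurofilaments also contain a heavy chain, Nefh, which had 1 read in shCtrl and 0 in shSetdb1, and alpha-internexin (Ina), which had 0 reads in both.

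Gap43 (ENSMUSG00000047261, chromosome 16, 42248442 to 42340651, minus strand) was the neuronal gene with the fewest reads, 35 in shCtrl (1.23 FPKM) and 87 in shSetdb1 (3.05 FPKM). Its log2 ratio was 0.86, and its read ratio of 2.40 had the wide interval of 1.61 to 3.67. With a pseudocount of 0.1 in place of 1 its log2 ratio was 1.25, and 4 of the 10 genes rose 2-fold in place of 3. With that pseudocount 10.6% of all genes rose and 8.15% fell. Tubb3 (ENSMUSG00000062380, chromosome 8, 123411424 to 123422015, plus strand), the neuronal beta-tubulin, was at 4.43 FPKM (155 reads) in shCtrl and 7.49 FPKM (262 reads) in shSetdb1. Its log2 ratio was 0.64 and its read ratio 1.63 (1.34 to 2.01).

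**Figure D2:**
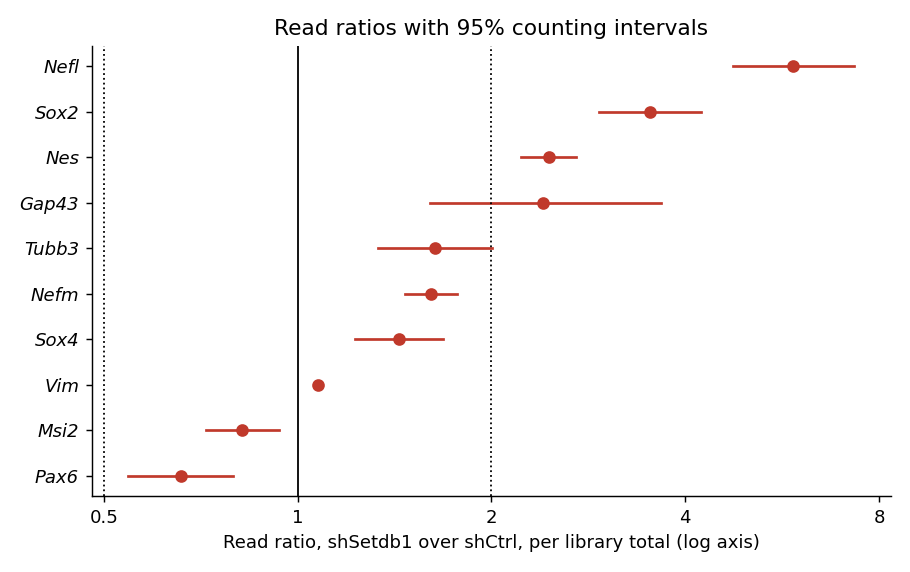
Read ratio of each gene, shSetdb1 over shCtrl and relative to each library's total, on a log axis, with 95% exact binomial intervals as bars and dotted lines at 0.5 and 2. The intervals of Sox2 (2.94 to 4.24), Nes (2.23 to 2.71) and Nefl (4.75 to 7.32) lie above 2, and those of Pax6 and Msi2 lie below 1.

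The intervals of all 10 read ratios left out 1, and those of 3 lay above 2. The same counts were not made over all genes, so nothing particular to the members is read from them. The intervals hold no spread between cultures. Relative to all genes, the log2 ratio of Sox2 was at percentile 98.0, that of Nes at 95.3, Gap43 at 90.7, Nefm at 85.5, Tubb3 at 85.0 and Sox4 at 77.9. Vim was at percentile 60.9, Msi2 at 37.6 and Pax6 at 29.6.

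**Figure D3:**
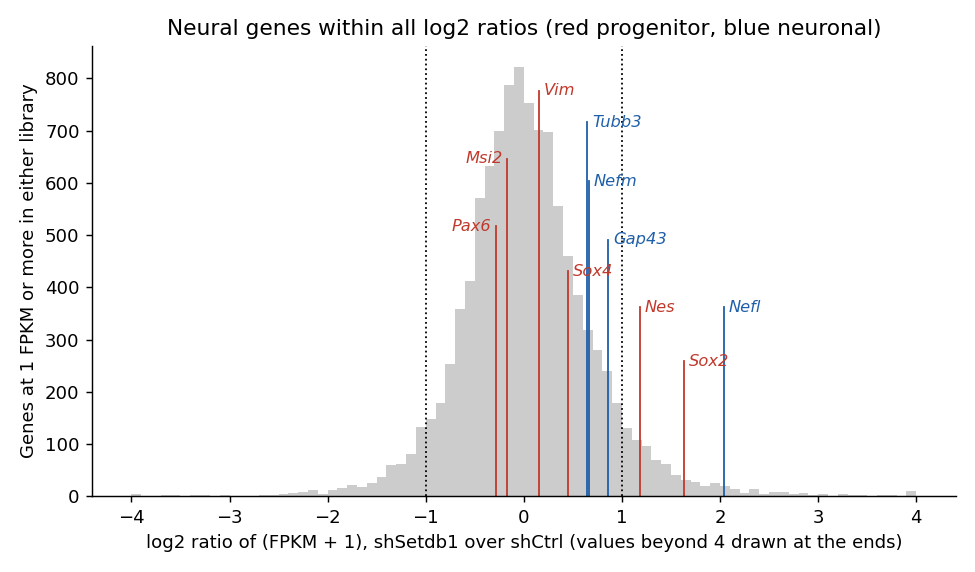
Number of genes at each log2 ratio of (FPKM + 1), shSetdb1 over shCtrl, in steps of 0.1 for the 10671 genes at 1 FPKM or more in either library (grey), with a vertical line for each of the 6 progenitor genes (red) and 4 neuronal genes (blue), whose heights carry no value, and dotted lines at a 2-fold difference. Nes, Sox2 and Nefl lie right of the upper dotted line, and the other 7 lie between the dotted lines.

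The order of the levels also differed between the libraries. In shCtrl it ran from Vim through Nefm, Nes, Tubb3, Sox2, Sox4, Msi2, Nefl and Pax6 to Gap43. By 95% Poisson intervals on the reads, the neighbours from Nes to Msi2 overlapped each other in turn, as did Nefl, Pax6 and Gap43. In shSetdb1 the order was Vim, Sox2, Nes, Nefm, Nefl, Tubb3, Sox4, Gap43, Msi2 and Pax6, and only the pairs of Nes with Nefm and of Gap43 with Msi2 overlapped. Sox2 moved from place 5 to place 2 and Nefl from place 8 to place 5. These places use the deposited lengths, which for Nefl, Nefm and Sox4 include exon bases shared with another gene. If reads in those bases were dropped in counting, the order would differ. By level, Sox2 was at percentile 35.0 of the 10671 genes in shCtrl and 65.1 in shSetdb1, and Nefl at 14.8 and 55.8. In bulk RNA, more cells with a transcript and more transcript per cell cannot be told apart.

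The gene models of Nefl and Nefm share exon bases on opposite strands. The transcript Nefm-202 ends in an exon that runs across the start of Nefl, so that 1108 bases (chromosome 14, 68083863 to 68084970) lie in exons of both. This is 96.6% of exon 1 of Nefl, 32.8% of all exon bases of Nefl and 19.2% of those of Nefm. The other annotated transcript, Nefm-201, does not reach Nefl. The sources used here do not say whether counting used strand or kept shared reads, so reads in these bases cannot be assigned to either gene. If they had been dropped, the level over the remaining 2272 bases of Nefl would be 2.37 FPKM in shCtrl and 14.4 FPKM in shSetdb1, a log2 ratio of 2.19. Over its remaining 4674 bases Nefm would be at 8.25 and 13.7 FPKM, a log2 ratio of 0.67. In shSetdb1 Nefl would then stand above Nefm and not below it.

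**Figure D4:**
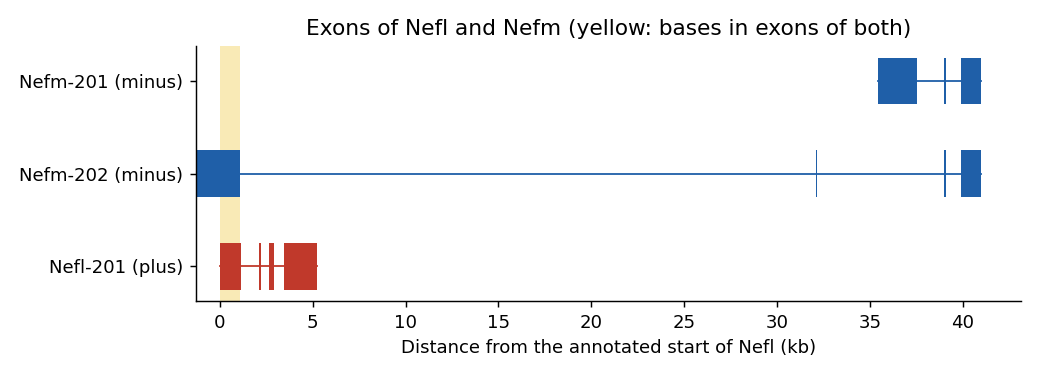
Exons (boxes) of the transcripts Nefm-201 and Nefm-202 (blue, minus strand) and Nefl-201 (red, plus strand) in GENCODE M21, by distance in kb from the annotated start of Nefl. The yellow band marks the 1108 bases that lie in exons of both genes.

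A similar overlap touches Sox4, where 54.6% of the exon bases are also in an exon of Gm26735, a long noncoding RNA gene on the opposite strand listed at 0 in both libraries. If reads in those bases had been dropped in counting, Sox4 would be at 6.59 and 9.78 FPKM over its remaining 2179 bases. Its log2 ratio would be 0.51. The other 7 members share no exon bases with another gene of the table. No other locus shares a Swiss-Prot match with any member in the authors' table. For Tubb3, none of its 50-base stretches occurs in a transcript of another gene, although the beta-tubulins are close relatives. For Pax6, 55 of 12428 such stretches (0.443%) occur in transcripts of other genes, 770 in number.

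On log2 of (FPKM + 1), none of the nearest expressed genes on either side of a member reached 2-fold. The nearest gene at 1 FPKM on each side of each member made 18 loci, 1 of them without a symbol, at distances from 0.135 kb to 3535 kb. None rose or fell 2-fold and 7 were higher. Among all genes, 6.81% rose, 4.85% fell and 49.6% were higher, so nothing is read from these counts of 18. Their log2 ratios ran from -0.91 (Gpatch4, 62.7 kb from Nes) to 0.98 (Hacd1, 267 kb from Vim). In reads, Hacd1 had 106 in shCtrl and 248 in shSetdb1, and Arhgap31, 3535 kb from Gap43, had 248 and 590. Gpatch4 had 583 and 289 reads, and Crabp2, near Nes, had 44 and 20. Sox2 lies within Sox2ot, a long noncoding RNA gene on the same strand, which had 0 reads in shCtrl and 1 in shSetdb1. Pax6os1, which overlaps the start of Pax6 on the opposite strand, had 4 reads and 1 read.

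The members are part of a wider set of neural genes, of which most were not measured at this level. The 5 lists, of neural progenitor genes, neuronal transcription factors, neuronal cytoskeleton and axon genes, synapse and transmitter genes, and other pan-neuronal genes, held 156 genes. Of these, 30 reached 1 FPKM in at least 1 library, the 10 members and 20 others. Among the 20 others, 8 rose 2-fold (40%) and 1 fell (5%), with a median log2 ratio of 0.78, beside the 6.81%, 4.85% and median of -0.00039 of all genes. The lists were drawn up with results of these data known. No reads were counted in either library for 79 of the 156 genes (50.6%), beside 37.6% of all 22046 protein-coding genes. Just above the threshold were Pax6 and Bsn (1.59 and 2.45 FPKM), and just below it Msi1 (0.285 FPKM in shCtrl and 0.874 FPKM in shSetdb1) and Shank1 (0.762 and 0.604 FPKM).

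**Figure D5:**
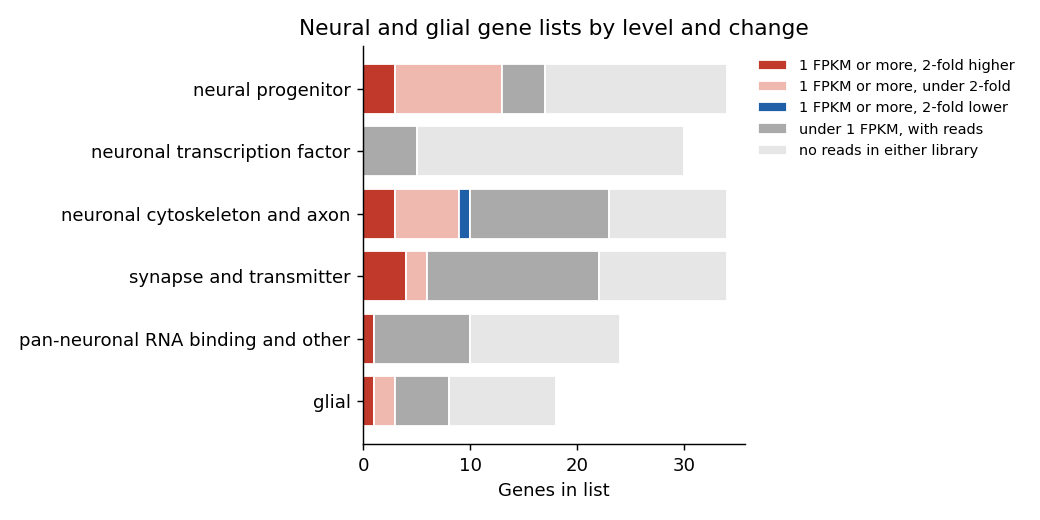
Number of genes in each neural list and in the glial list, split by level and by change between the libraries, as coloured segments of a bar. In the list of 30 neuronal transcription factors no gene reached 1 FPKM, and 25 had no reads in either library.

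Among the 34 neural progenitor genes, 13 were at 1 FPKM or more, and their median log2 ratio was 0.31, against -0.00039 for all genes. The list was drawn up with results known. Of the 13, 3 rose 2-fold and none fell 2-fold, beside 6.81% and 4.85% of all genes, so nothing is read from 3 of 13. Besides Sox2 and Nes, the third was Sox9, a factor of neural stem cells, glia and many epithelia, from 6.21 FPKM (481 reads) in shCtrl to 14.3 FPKM (1109 reads) in shSetdb1. The lowest ratios were those of Bmi1, a Polycomb protein of self-renewing stem cells (466 and 249 reads, log2 ratio -0.74), and Gli3, a Hedgehog pathway factor (503 and 266 reads, log2 ratio -0.62). Sox1 and Fabp7, also markers of neural progenitors, had no reads in either library, which allows up to 0.0331 FPKM for Sox1 and 0.128 FPKM for Fabp7 at 3 reads.

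The 30 neuronal transcription factors include the proneural factors Neurog1, Neurog2 and Neurod1, which start neuronal differentiation and had no reads in either library. None of the 30 reached 1 FPKM. Isl2, a LIM-homeodomain factor of motor neurons, was the highest, with 18 reads (0.438 FPKM) in shCtrl and 24 reads (0.584 FPKM) in shSetdb1. All 30 together had 64 reads in shCtrl and 57 in shSetdb1.

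The list of 34 neuronal cytoskeleton and axon genes held 10 at 1 FPKM or more. Half-way in log2 ratio among these 10 lay 0.74, where all genes gave -0.00039. This list too was drawn up with results known. Of the 10, 3 rose 2-fold and 1 fell, beside 6.81% and 4.85% of all genes, so nothing is read from these counts. Beside Nefl, those that rose were Tuba1a, an alpha-tubulin abundant in developing neurons (143 to 452 FPKM, log2 ratio 1.65), and Map1a, a microtubule-associated protein of mature neurons (4.22 to 13.96 FPKM, log2 ratio 1.52). Map1b, the microtubule-associated protein of growing axons, fell from 5.77 to 2.24 FPKM (1713 to 666 reads, log2 ratio -1.06). Tubb2a was at 29.6 and 53.4 FPKM (log2 ratio 0.83). The collapsin response mediators Dpysl2 and Dpysl3, which act in axon guidance, had log2 ratios of -0.47 and -0.84. The other 24 genes had 192 reads in shCtrl and 88 in shSetdb1. Among them Map2, a dendrite marker, and Dcx, a marker of migrating neurons, had no reads in either library, which allows up to 0.00974 FPKM for Map2 and 0.0127 FPKM for Dcx at 3 reads.

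Of 34 synapse and transmitter genes, 6 reached 1 FPKM. Of these 6, 4 rose 2-fold and none fell 2-fold, beside 6.81% and 4.85% of all genes. The median log2 ratio of the 6 was 1.03, beside -0.00039 over all genes. The list was drawn up with results known, so nothing is read from 4 of 6. Among the 4 that rose were Rab3a, a GTPase of secretory vesicles (5.23 to 16.0 FPKM, log2 ratio 1.45), Vamp2, a vesicle SNARE (14.2 to 31.6 FPKM, 1.10), and Dlg4, a postsynaptic scaffold (2.45 to 6.11 FPKM, 1.04). Stx1a (log2 ratio 0.34) and Bsn (0.41) did not reach 2-fold. The other 28 genes had 394 reads in shCtrl and 231 in shSetdb1, and the SNARE gene Snap25 and the transmitter genes Gad1, Gad2 and Slc32a1 had none in either library. Of 24 other pan-neuronal genes only Eno2 reached 1 FPKM, from 15.6 to 115 FPKM (log2 ratio 2.80). Its product is known as neuron-specific enolase and is an enzyme of glycolysis. Rbfox3, which encodes the antigen NeuN, and Elavl4 had no reads in either library.

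Members that belong to small protein families were set beside their relatives. For scale, 6.81% of all genes rose 2-fold and 4.85% fell. Of 14 genes of non-keratin intermediate filaments and lamins, 8 reached 1 FPKM, and Nefl and Nes were the 2 that rose 2-fold. The 3 lamin genes Lmna, Lmnb1 and Lmnb2 had log2 ratios of 0.69, 0.61 and 0.51, near that of Nefm, and Vim had the lowest ratio of the 8. Of 8 beta-tubulins, 6 reached 1 FPKM and only Tubb4a rose 2-fold (1.05 to 3.88 FPKM, log2 ratio 1.25), while Tubb4b was the lowest at -0.23. Tubb3 made up 0.302% of the summed beta-tubulin FPKM in shCtrl and 0.353% in shSetdb1. Tubb5, the main beta-tubulin of dividing cells, was at 207 times the Tubb3 level in shCtrl and 190.1 times in shSetdb1. Of 20 SOX genes, 4 reached 1 FPKM, Sox2, Sox9, Sox4 and Sox13, and the first 2 of these rose 2-fold. Sox13 was at 1.02 and 1.10 FPKM, and 14 of the 20 had no reads in either library.

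Genes of the REST complex and other repressors of neuronal genes went in both directions. Of 16, 15 reached 1 FPKM, and the median log2 ratio was -0.12. Of the 15, 1 rose 2-fold and 1 fell, near the 6.81% and 4.85% of all genes. Rcor2, a CoREST protein, rose from 10.1 to 27.6 FPKM (log2 ratio 1.37), and the phosphatase gene Ctdspl fell from 5.89 to 2.15 FPKM (log2 ratio -1.13). Rest itself, named after its values were seen, was at 2.95 FPKM (399 reads) in shCtrl and 3.61 FPKM (489 reads) in shSetdb1, a read ratio of 1.19 (1.04 to 1.36).

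Markers of other cell types were measured in the same libraries. Of the 7 neuronal markers Tubb3, Map2, Rbfox3, Syn1, Snap25, Dcx and Elavl4, Tubb3 alone reached 1 FPKM, Syn1 had 15 reads in shCtrl and 5 in shSetdb1, and the other 5 had none. Of 18 glial genes, 3 reached 1 FPKM, Cnp (1.91 to 7.10 FPKM, log2 ratio 1.48, the 1 that rose 2-fold), Pdgfra and Slc1a2 (log2 ratio 0.25, the lowest). Sox10, Olig1, Olig2 and S100b had no reads, and Gfap had 2 and 5. Of 20 colon epithelium markers, 6 reached 1 FPKM and 9, among them Epcam and Cdh1, had no reads in either library. Of the 6, Krt18, Krt19, Krt20 and Cdh17 rose 2-fold and none fell 2-fold, beside 6.81% and 4.85% of all genes. Krt19 (0.0288 to 1.53 FPKM) and Cdh17 (0.251 to 1.56 FPKM) reached 1 FPKM in shSetdb1 only, so they passed the filter through their rise. The median log2 ratio of the 6 was 1.13, and with a filter at 5 FPKM it was 0.39. On log2 of (FPKM + 1) Krt20 was the highest (5.07 to 35.6 FPKM, log2 ratio 2.59) and Klf4 the lowest (38.8 to 21.6 FPKM, -0.82). By reads, Krt19 had the highest ratio of the 6, from 1 read in shCtrl to 53 in shSetdb1, a read ratio of 51.3 with a counting interval of 8.81 to 2062.5. The sum over the 20 was 94.0 FPKM in shCtrl and 160 FPKM in shSetdb1. Of 16 fibroblast and mesenchyme markers, 9 reached 1 FPKM, and the sums over the 16 were 765 and 923 FPKM. On log2 of (FPKM + 1) none of the 9 passed 2-fold, from Pdgfra (log2 ratio 0.89) to Col3a1 (-0.96). By reads these 2 differed more. Pdgfra had 94 reads in shCtrl and 333 in shSetdb1, a read ratio of 3.43 (2.72 to 4.36). Col3a1 had 493 and 163, a read ratio of 0.320 (0.266 to 0.383). Pdgfra reached 1 FPKM in shSetdb1 only and Col3a1 in shCtrl only. Of 12 leukocyte markers 1 reached 1 FPKM, the lysosomal gene Cd68 (10.4 to 100.2 FPKM), while Cd3e, Itgam and Adgre1 had no reads. The part of these markers in the values of the 10 neural genes was not tested.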

How the data were processed

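RNA sequencing of 1 shSetdb1 and 1 shCtrl library was used, grouped by the genotype in the labels, with columns matched by the library names. The authors deposited FPKM values with gene model lengths, per the file headers. HISAT2, featureCounts 1.5.0-p3, CASAVA and the GRCm38 build are named in the submitters' processing notes, with no settings, and the use of strand is not given in the sources used here. FPKM times length came out as whole multiples of 1 step for 100% of values above 0 (tolerance 0.001 reads), with 1 common depth of 18731117 for both libraries, so reads were recovered. Gene spans and exon unions of the 10 members equal those of GENCODE M21.

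The members and the 13 gene lists were chosen with earlier results of these data known. Log2 ratios used a pseudocount of 1 FPKM, a filter of 1 FPKM in either library and a 2-fold threshold, with no p-value because each group has 1 library. Zeros allow up to 3 reads. Genes named are the members, Setdb1, list genes at 1 FPKM (in lists of over 10 such genes, the 3 highest and 3 lowest ratios), the highest and lowest of each other list, the gene nearest below 1 FPKM, and overlapping and nearest genes. Some list genes are not reported here by name. Genes listed at 0 reads and any others were chosen after their values were seen. Reads may differ from molecules, and the spread between cultures is unknown. Alternatives were other pseudocounts, filters, thresholds and scalings, Swiss-Prot sums, protein-coding genes only and, added after seeing the data, lengths without shared exon bases and counts without Nefl and Nefm. The calculations were tested on simulated data. The software was scipy 1.17.1, pandas 2.3.3, numpy 2.4.6 and matplotlib 3.10.9 under Python 3.11.15.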

Additional observations from a re-analysis of the deposited data

How the results depend on the processing

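The 63 alternative values of the 10 member ratios include a Swiss-Prot sum for each member, which covers 1 locus and so could not move. Of the 63, 58 stayed within counting error, 5 moved and 0 reversed. The 5 were Nes (1.33) and Nefl (2.53) with a pseudocount of 0.1, and Vim when scaled by the upper quartile (0.0997), by own read totals (0.10) and by the sum without the 100 highest genes (0.12). Pax6 and Msi2 stayed below 0 and the other 8 above 0 under all alternatives run. The count of members that rose 2-fold was 6 at 1.5-fold (16.9% of all genes) and 1 at 4-fold (1.09%). No member fell past any threshold run. With a pseudocount of 0.1, Setdb1 was at -2.04, and 1134 genes rose and 870 fell. At 1.5-fold these counts were 1804 and 1523, and at 4-fold 116 and 56. With no filter, medians of the progenitor, neuronal cytoskeleton, synapse, pan-neuronal, glial, SOX, fibroblast, leukocyte and colon epithelium lists were all 0, because genes without reads enter, and those of filament and beta-tubulin genes were 0.45 and 0.64. With a filter at 5 FPKM, progenitor genes were at 0.73, glial genes at 1.48, beta-tubulins at 0.64, SOX genes at 1.36 and colon epithelium markers at 0.39 (1.13 as reported), with fewer genes. With a pseudocount of 0.1, glial genes were at 1.64 and colon epithelium markers at 1.75. The median of the pan-neuronal and of the leukocyte list each rests on 1 gene. No paired analysis was possible because there was 1 library per group, and no library could be left out for the same reason. Depth limits the genes under 1 FPKM: the 126 neural list genes there had 911 reads in shCtrl and 716 in shSetdb1 in all.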

Other observations

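Some neural genes under 1 FPKM differed between the libraries by more than counting error. All of them were chosen after their values were seen, except Msi1 and Prph, and none has a replicate check. Msi1, the Musashi gene more restricted to neural progenitors than Msi2, had 31 reads in shCtrl and 95 in shSetdb1, a read ratio of 2.96 (1.96 to 4.60), while that of Msi2 was 0.821. Dll1, a Notch ligand, had 2 reads and 45 reads, a ratio of 21.8 with a counting interval of 5.68 to 185. Prph, the peripheral neuron filament peripherin, had 0 reads and 21 reads. With the shCtrl library set at a floor of 3 reads this is 6.77-fold higher, and the counting interval of the ratio starts lower, at 5.04.

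Other neuronal genes were lower in the knockdown library. L1cam, an axonal adhesion molecule, had 50 reads in shCtrl and 0 in shSetdb1. With the shSetdb1 library set at a floor of 3 reads this is 17.2-fold lower, and the counting interval of the fold starts lower, at 13.5. Mapt, which encodes tau, had 30 reads and 5 reads, a read ratio of 0.161 (0.0488 to 0.420). The synaptotagmins Syt1 and Syt4, calcium sensors of vesicle release, had 115 and 42 reads and 38 and 4 reads, with read ratios of 0.353 (0.242 to 0.507) and 0.102 (0.0264 to 0.283). Ank2, an ankyrin of axons and muscle, had 87 reads and 26 reads.

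A locus without a symbol that the authors' table places 135 bases beyond the start of Nefm, on the opposite strand, had 44 reads in shCtrl and 34 in shSetdb1, while Nefm had 722 and 1203.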
